A study of Mus musculus with 12 samples.

Results

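The genes described here are 10 receptor tyrosine kinases that bind growth factors or, in 1 case, collagen. Pdgfra, Pdgfrb, Egfr, Erbb2, Erbb3, Fgfr1, Fgfr2, Fgfr3, Met and Ddr2 were chosen by symbol from the annotation of the array, with the brightest probe set per symbol, and make up 10 of the 22180 genes that the array measured with a named probe set. Each had a single probe set. They were followed over 12 arrays of RNA from SKPs, short for skin-derived precursors, which are cultured from mouse dermis and form floating spheres. The mice were 9 months old and of the strain given in the labels as CD57/Bl6. The 4 groups of 3 arrays were SKPs from uninjured skin with vehicle, from wounded skin with vehicle, from wounded skin with trimebutine maleate, an antispasmodic drug, and from wounded skin with alprostadil, which is prostaglandin E1. All groups shared the culture medium, which held FGF2 at 40 ng/ml and EGF at 20 ng/ml, ligands of FGF receptors and of Egfr, and all were measured as secondary spheres. The sources used here give no drug dose, time after wounding or skin site. By its title, the study looked for drugs that enhance skin repair. Values are log2 expression, so that 1 unit is a doubling, and a mean is given with its SD over 3 arrays.

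A receptor tyrosine kinase spans the cell membrane. When its ligand brings receptor chains together, they phosphorylate each other on tyrosines, adaptor proteins such as Grb2 dock there, and the Ras-ERK and PI3K-Akt cascades are switched on. In skin, PDGF receptors are known from dermal fibroblasts and pericytes, Egfr and Met from the migration of cells into wounds, FGF receptors from the exchange between dermis and epidermis, and Ddr2 as a fibroblast receptor for fibrillar collagen.

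Upstream sequence was set out for 4 of the genes, because Pdgfra and Egfr were low on the same arrays while Met and Ddr2 were not. Each line holds the 250 bases before the RefSeq start of the gene on build GRCm38.p6, written 5′ to 3′ on the strand of the gene. Capitals mark matches, on either strand, to a GC box (GGGCGG), an AP-1 site (TGANTCA), a CRE half-site (TGACG) or a TATA box (TATAAA).
Pdgfra, chr5:75152001-75152250, + strand: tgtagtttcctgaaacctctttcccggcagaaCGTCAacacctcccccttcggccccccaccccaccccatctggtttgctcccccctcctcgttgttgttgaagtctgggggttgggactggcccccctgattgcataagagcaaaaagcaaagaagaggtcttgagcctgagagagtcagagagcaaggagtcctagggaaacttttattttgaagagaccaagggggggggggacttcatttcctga
Egfr, chr11:16751953-16752202, + strand: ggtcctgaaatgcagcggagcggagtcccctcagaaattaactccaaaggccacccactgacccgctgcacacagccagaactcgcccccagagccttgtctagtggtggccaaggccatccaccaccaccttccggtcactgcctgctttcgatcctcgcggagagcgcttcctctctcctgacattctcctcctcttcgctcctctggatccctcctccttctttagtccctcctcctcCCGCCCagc
Met, chr6:17463707-17463956, + strand: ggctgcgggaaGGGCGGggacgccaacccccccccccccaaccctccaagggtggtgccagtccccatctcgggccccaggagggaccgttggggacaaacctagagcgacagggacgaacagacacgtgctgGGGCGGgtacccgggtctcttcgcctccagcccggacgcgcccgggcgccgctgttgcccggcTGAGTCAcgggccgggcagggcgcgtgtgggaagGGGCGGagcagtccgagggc
Ddr2, chr1:170088945-170089194, - strand: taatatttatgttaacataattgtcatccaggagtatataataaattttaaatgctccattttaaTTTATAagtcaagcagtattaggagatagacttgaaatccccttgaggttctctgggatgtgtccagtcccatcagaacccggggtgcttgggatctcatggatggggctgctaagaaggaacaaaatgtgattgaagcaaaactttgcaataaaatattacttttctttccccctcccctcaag
The windows of Pdgfra and Egfr shared none of the motifs searched. Pdgfra held 1 CRE half-site, at position -218 from the start, and Egfr held 1 GC box, at position -9. Met held 3 GC boxes and 1 AP-1 site, and Ddr2 held the TATAAA letters once, at position -185. Of all 32851 windows of this length in the RefSeq table, 32.7% held a GC box, 6.75% an AP-1 site, 17.8% a CRE half-site and 12.4% a TATA box. The windows differed in base composition. Met had 74.0% G+C and 24 CpG dinucleotides, Egfr 60.8% and 11, Pdgfra 54.4% and 4, and Ddr2 37.6% and 1, against medians of 52.4% and 6 over all windows. The table matched 7 of the 10 receptor genes. Of the others matched, Erbb2 had 1 CRE half-site, at position -171, and the window of Fgfr2, with 44.0% G+C and 2 CpG dinucleotides, held none of the motifs. Fgfr3 had a pair of windows, with 3 and 2 GC boxes and 66.8% and 72.8% G+C.

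Before the receptors are described, the arrays themselves need a word. Fibroblast markers (9 genes, Pdgfra among them) lay above the array median on all 12 arrays, so the spheres carried a dermal fibroblast profile in every group. Their mean lay 5.88 to 6.15 log2 units above the array median in uninjured vehicle, 5.16 to 5.98 in wound vehicle, 6.0 to 6.06 in wound trimebutine and 5.32 to 6.03 in wound alprostadil. Precursor and dermal papilla markers (7 genes) averaged 2.21 to 2.61 units above it in uninjured vehicle and 1.73 to 2.20 in wound vehicle. They averaged 2.22 to 2.45 in wound trimebutine and 1.82 to 2.24 in wound alprostadil, with 4 to 6 of the 7 above the median on an array. Macrophage markers (8 genes) averaged 4.36 units above the median on 1 array, wound alprostadil replicate 1, and between -0.39 and 0.99 units from it on the other 11 arrays. The macrophage gene Adgre1 read 11.12 there and 5.10 on wound alprostadil replicate 2. The 6 endothelial genes averaged -0.65 to -0.50 units from the median in uninjured vehicle, -0.46 to 0.03 in wound vehicle, -0.27 to -0.10 in wound trimebutine and -0.40 to 0.10 in wound alprostadil. Among them Cdh5 reached 9.98 on wound vehicle replicates 1 and 2, Tek lay between 6.97 and 8.24, Kdr reached 7.26 on wound alprostadil replicate 1 and at most 6.44 elsewhere, and Pecam1, Cldn5 and Emcn were below the array median on all arrays. Keratinocyte markers averaged between -0.41 and 0.04 units from the median. The number of arrays, 3 per group, limits the precision.

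None of the 8 receptor genes bright enough to be tested differed between groups at an adjusted p of 0.05 in limma, in any of the 6 pairs of groups or in the F test across the 4 groups. Of all 13153 tested genes, 0% to 0.198% passed in these comparisons. The sizes were not small for all of them. Egfr was 0.99 log2 units lower in wound vehicle than in uninjured vehicle, a 1.99-fold difference, and Met was 0.71 units higher, a 1.63-fold difference. With trimebutine, Egfr, Pdgfra and Pdgfrb lay 0.92, 0.73 and 0.72 units above wound vehicle, and all 3 lay within 0.22 units of uninjured vehicle. With alprostadil their differences from wound vehicle were -0.06 for Pdgfra, 0.13 for Egfr and 0.28 for Pdgfrb. The arrays of a group spread widely for these genes, as their values below show.

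**Figure D1:**
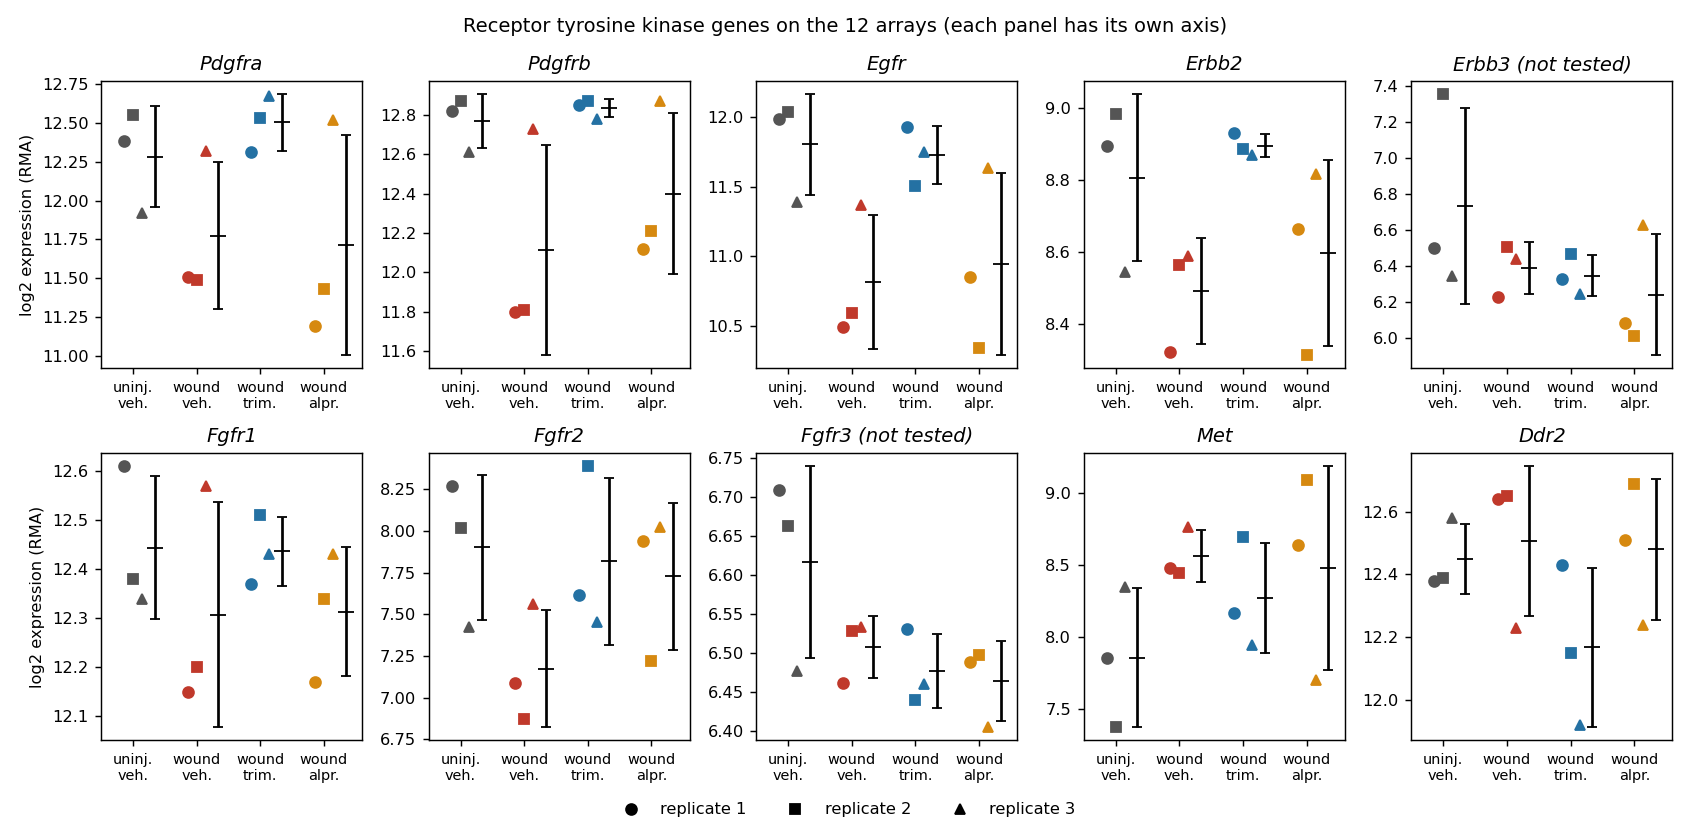
Log2 level (y axis) of each of the 10 receptor genes on every array, by group (x axis), with points for arrays and bars for the group mean and SD over 3 arrays; each panel has its own y range. Wound vehicle and wound alprostadil each hold 2 low arrays for Pdgfra, Pdgfrb and Egfr, while replicate 3 of both groups lies with the other groups.

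Pdgfra binds PDGF-A, PDGF-B and PDGF-C chains and marks dermal fibroblasts. It read 12.38, 12.55 and 11.92 in uninjured vehicle (replicates 1, 2 and 3), 11.51, 11.49 and 12.32 in wound vehicle, 12.31, 12.53 and 12.67 in wound trimebutine, and 11.19, 11.43 and 12.52 in wound alprostadil. The low arrays were replicates 1 and 2 of wound vehicle and of wound alprostadil, and every pair of groups overlapped. Group means were 12.29 ± 0.33 in uninjured vehicle, 11.77 ± 0.47 in wound vehicle, 12.50 ± 0.18 in wound trimebutine and 11.71 ± 0.71 in wound alprostadil (SD, n = 3 each). Wound vehicle was lower than uninjured vehicle by -0.51 ± 0.34 (limma difference ± SE, adjusted p = 0.539). Without wound vehicle replicate 3 this difference was -0.79. Wound trimebutine exceeded wound vehicle by 0.73 ± 0.34 (adjusted p = 0.539) and wound alprostadil by 0.79 ± 0.34 (unadjusted p = 0.0412, adjusted p = 0.752). Against wound alprostadil the difference was 0.53 without replicate 1 of that group, the array with high macrophage genes, and 1.19 without replicate 3. Wound alprostadil and wound vehicle differed by -0.06 ± 0.34, with a 95% interval of -0.82 to 0.69 that admits a change in either direction.

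Pdgfrb, the receptor of PDGF-B and PDGF-D on fibroblasts and mural cells, showed the same low arrays. It read 12.82, 12.87 and 12.61 in uninjured vehicle, 11.80, 11.81 and 12.73 in wound vehicle, 12.85, 12.87 and 12.78 in wound trimebutine, and 12.12, 12.21 and 12.87 in wound alprostadil. All wound trimebutine arrays lay above all wound vehicle arrays, while uninjured and wound vehicle overlapped through wound vehicle replicate 3. The difference of wound vehicle from uninjured vehicle was -0.65 ± 0.26, with a 95% interval of -1.22 to -0.08 and an unadjusted p of 0.0285 (limma, adjusted p = 0.341). Wound trimebutine exceeded wound vehicle by 0.72 ± 0.26 (interval 0.15 to 1.28, limma unadjusted p = 0.018, adjusted p = 0.528). It differed from uninjured vehicle by 0.07 ± 0.26. Wound alprostadil lay above wound vehicle by 0.28 ± 0.26 (adjusted p = 0.998), which became 0.05 without wound alprostadil replicate 3 and 0.59 without wound vehicle replicate 3. Within same-numbered arrays it was higher in 3 of 3 pairs, by 0.32, 0.40 and 0.14 (limma with a replicate block over all 4 groups, adjusted p = 0.985). The pairs of the other receptors, and the limits of this pairing, are given with Fgfr2 below. Mural markers as a list averaged 0.47 to 0.70 units above the array median in uninjured vehicle and 0.36 to 0.95 in wound vehicle. They averaged 0.89 to 1.02 in wound trimebutine and 0.48 to 0.97 in wound alprostadil. The members did not move together. From wound vehicle to wound trimebutine, the mean of Acta2 went from 8.57 to 10.04 and of Rgs5 from 5.89 to 6.87. Cspg4 (8.75 to 8.86) and Notch3 (7.70 to 7.93) rose less. Myh11 (7.28 to 7.17), Kcnj8 (6.42 to 6.30) and Des (6.46 to 6.38) were lower. Only 4 of the 7 mural genes were bright enough to be tested, and their part in the Pdgfrb values was not tested.

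Egfr, which binds EGF and its relatives, showed the largest differences of the 8 tested receptors in wound vehicle against uninjured vehicle and in wound trimebutine against wound vehicle. It read 11.99, 12.04 and 11.39 in uninjured vehicle, 10.49, 10.59 and 11.37 in wound vehicle, 11.93, 11.51 and 11.75 in wound trimebutine, and 10.85, 10.34 and 11.64 in wound alprostadil. All 3 wound vehicle arrays lay below all 3 uninjured arrays, although the nearest pair was 11.37 and 11.39. All 3 wound trimebutine arrays lay above wound vehicle. The first difference was -0.99 ± 0.34 (95% interval -1.73 to -0.25, limma unadjusted p = 0.0139, adjusted p = 0.282). The second was 0.92 ± 0.34 (0.17 to 1.66, limma unadjusted p = 0.0203, adjusted p = 0.528). Egfr was also lower in wound alprostadil than in uninjured vehicle, by -0.86 ± 0.34 (limma unadjusted p = 0.0273, adjusted p = 0.656), with overlap through alprostadil replicate 3. This became -0.56 without wound alprostadil replicate 2. Wound alprostadil differed from wound vehicle by 0.13 ± 0.34. In the F test across the 4 groups Egfr had F = 4.77, an unadjusted p of 0.025 and an adjusted p of 0.576 (limma).

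Erbb2, the ErbB receptor that has no ligand of its own and pairs with the others, varied less. It read 8.89, 8.98 and 8.54 in uninjured vehicle, 8.32, 8.56 and 8.59 in wound vehicle, 8.93, 8.89 and 8.87 in wound trimebutine, and 8.66, 8.31 and 8.82 in wound alprostadil. Wound trimebutine lay above every wound vehicle and every wound alprostadil array. It exceeded wound vehicle by 0.41 ± 0.15 (95% interval 0.08 to 0.74, limma unadjusted p = 0.0208, adjusted p = 0.528) and wound alprostadil by 0.30 ± 0.15 (adjusted p = 0.752). The latter was 0.16 without wound alprostadil replicate 2. Wound vehicle was lower than uninjured vehicle by -0.32 ± 0.15 (adjusted p = 0.402).

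Erbb3, the neuregulin receptor that relies on the kinase of its partner, was dim and was not tested, since it passed the array median on 1 of 12 arrays. It read 6.50, 7.36 and 6.34 in uninjured vehicle, 6.23, 6.50 and 6.44 in wound vehicle, 6.33, 6.47 and 6.24 in wound trimebutine, and 6.08, 6.01 and 6.63 in wound alprostadil. The array above the median was uninjured vehicle replicate 2. On that array the Schwann and neural crest genes Ngfr and Sox10 were at 7.90 and 7.21, their highest values over the 12 arrays, where Ngfr otherwise lay between 6.72 and 7.38 and Sox10 between 6.49 and 7.14. The list of Schwann and melanocyte markers, 7 of 9 found, averaged 0.26 units above the median there, within the range of -0.05 to 0.36 over all arrays. Of the other members found, S100b, Mitf, Dct and Pmel had their highest values in wound groups and Tyr in uninjured vehicle. S100b read at most 6.70 in uninjured vehicle and 7.18 to 8.30 in wound trimebutine. Whether cells of that lineage account for the Erbb3 value was not tested.

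Fgfr1, the main FGF receptor of mesenchymal cells, was bright and varied least among the tested receptors. It read 12.61, 12.38 and 12.34 in uninjured vehicle, 12.15, 12.20 and 12.57 in wound vehicle, 12.37, 12.51 and 12.43 in wound trimebutine, and 12.17, 12.34 and 12.43 in wound alprostadil. Its range over the 12 arrays was 0.46 units, against a median range of 0.58 over all tested genes. Group means lay between 12.31 and 12.44, and the differences between groups lay between -0.14 and 0.13 with an SE of 0.13. Without wound vehicle replicate 3, wound vehicle differed from uninjured vehicle by -0.27 and wound trimebutine from wound vehicle by 0.26, and neither passed.

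Fgfr2, whose isoforms divide between epithelium and mesenchyme and which a single probe set does not tell apart, spread more. It read 8.27, 8.02 and 7.42 in uninjured vehicle, 7.09, 6.87 and 7.56 in wound vehicle, 7.61, 8.39 and 7.45 in wound trimebutine, and 7.94, 7.22 and 8.02 in wound alprostadil. Every pair of groups overlapped. Wound vehicle was lower than uninjured vehicle by -0.73 ± 0.32 (limma unadjusted p = 0.0445, adjusted p = 0.373), and wound trimebutine and wound alprostadil lay above wound vehicle by 0.65 ± 0.32 and 0.56 ± 0.32 (adjusted p = 0.539 and 0.998). The trimebutine difference was 0.36 without wound trimebutine replicate 2 and 1.06 under the array weights described further on. Taken within same-numbered arrays, Fgfr2 was higher with alprostadil than with vehicle in 3 of 3 pairs, by 0.86, 0.35 and 0.46 (limma with a replicate block over all 4 groups, adjusted p = 0.985). In that comparison Pdgfra was higher in 1 of 3 pairs, and Egfr, Erbb2, Fgfr1, Met and Ddr2 were in 2 of 3. For trimebutine against alprostadil, Pdgfra, Egfr and Erbb2 were higher in 3 of 3 pairs. Pdgfrb and Fgfr1 were higher there in 2, Fgfr2 and Met in 1 and Ddr2 in 0. The pairing by number was read from these same data and not from the labels. The share of all genes higher in 3 of 3 pairs was not computed, so these counts have no baseline and are a description only.

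Fgfr3 was close to the array median throughout and was not tested, passing that median on 1 of 12 arrays. It read 6.71, 6.66 and 6.48 in uninjured vehicle and between 6.41 and 6.53 on the other 9 arrays. When genes at all levels were admitted to limma, 22180 in number, the widest difference of Fgfr3 was -0.15 ± 0.08 in wound alprostadil against uninjured vehicle (adjusted p = 0.73). The widest of Erbb3 was -0.49 ± 0.24 in the same comparison (adjusted p = 0.722).

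Met, the receptor of hepatocyte growth factor, ran the other way between uninjured and wounded skin. It read 7.85, 7.37 and 8.34 in uninjured vehicle, 8.48, 8.44 and 8.77 in wound vehicle, 8.17, 8.69 and 7.95 in wound trimebutine, and 8.64, 9.10 and 7.70 in wound alprostadil. All 3 wound vehicle arrays lay above all 3 uninjured arrays, and both drug groups overlapped with uninjured and with wound vehicle. Wound vehicle exceeded uninjured vehicle by 0.71 ± 0.35 (95% interval -0.07 to 1.49, limma unadjusted p = 0.0709, adjusted p = 0.423). The drug groups exceeded uninjured vehicle by 0.41 ± 0.35 with trimebutine and 0.62 ± 0.35 with alprostadil (adjusted p = 0.987 and 0.709). Single arrays moved these values. With 1 array left out, the difference from uninjured vehicle ran from 0.47 to 0.95 for wound vehicle, from 0.17 to 0.66 for wound trimebutine and from 0.31 to 1.01 for wound alprostadil. The lowest of these came without uninjured vehicle replicate 2 for the first pair of comparisons and without wound alprostadil replicate 2 for the last. Its ligand Hgf, taken up for this pairing and not by the naming rule, read 11.55, 11.39 and 11.31 in uninjured vehicle and 11.06, 11.26 and 10.84 in wound vehicle. These did not overlap, and the Hgf difference was -0.37 ± 0.17 (limma adjusted p = 0.385).

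Ddr2, which binds fibrillar collagen, was bright on every array. It read 12.38, 12.39 and 12.58 in uninjured vehicle, 12.64, 12.65 and 12.23 in wound vehicle, 12.43, 12.15 and 11.92 in wound trimebutine, and 12.51, 12.69 and 12.24 in wound alprostadil. Its lowest array was wound trimebutine replicate 3, and its range over the 12 arrays was 0.77 units. The difference of wound trimebutine from wound vehicle was -0.34 ± 0.17 (limma adjusted p = 0.539), which became -0.22 without wound trimebutine replicate 3, and that of wound vehicle from uninjured vehicle was 0.06 ± 0.17 (adjusted p = 0.901).

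Set beside all 13153 tested genes, the receptor counts stood as follows. In wound vehicle against uninjured vehicle 0 of the 8 tested receptors were called, where 0.0456% of all genes were. Of the 8, 3 had an unadjusted p under 0.05 (Pdgfrb, Egfr and Fgfr2) against 13% of all genes, and 2 (Egfr and Met) had groups without overlap against 18% of all genes. Their median difference was -0.42 against 0.01 for all genes, with 2 higher and 6 lower. In wound trimebutine against wound vehicle 0 of 8 were called and 0% of all genes. Here 3 of 8 had an unadjusted p under 0.05 (9.43% of all genes), 3 had groups without overlap (15.8% of all genes), and the median difference was 0.52 against 0.00. These comparisons share the 3 wound vehicle arrays, so the opposite signs of their values are not independent.

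The drug groups were compared with each other and with the remaining controls in the same way. In wound alprostadil against wound vehicle, 0 of 8 receptors were called (0% of all genes), 0 had an unadjusted p under 0.05 (2.75% of all genes) and 0 had groups without overlap (5.90% of all genes). The median difference of the receptors was 0.06 against 0.03. In wound trimebutine against wound alprostadil 0 of 8 were called (0% of all genes), 2 had an unadjusted p under 0.05 (Pdgfra and Egfr, 4.42% of all genes) and 1, Erbb2, had groups without overlap (11.2% of all genes). In wound trimebutine against uninjured vehicle 0 of 8 were called where 0.198% of all genes were. In that comparison 0 had an unadjusted p under 0.05 (7.13% of all genes) and 0 were without overlap (13.7% of all genes). In wound alprostadil against uninjured vehicle 0 of 8 were called (0% of all genes), 1, Egfr, had an unadjusted p under 0.05 (7.25%) and 0 were without overlap (9.41%). The F test called 0 of 8 receptors and 0.0152% of all genes, and 1 of 8, Egfr, had an unadjusted p under 0.05 against 7.89% of all genes. The p-values rest on the spread between isolates within groups. That spread was pooled over the 4 groups (8 residual degrees of freedom) and moderated by limma across the tested genes.

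**Figure D2:**
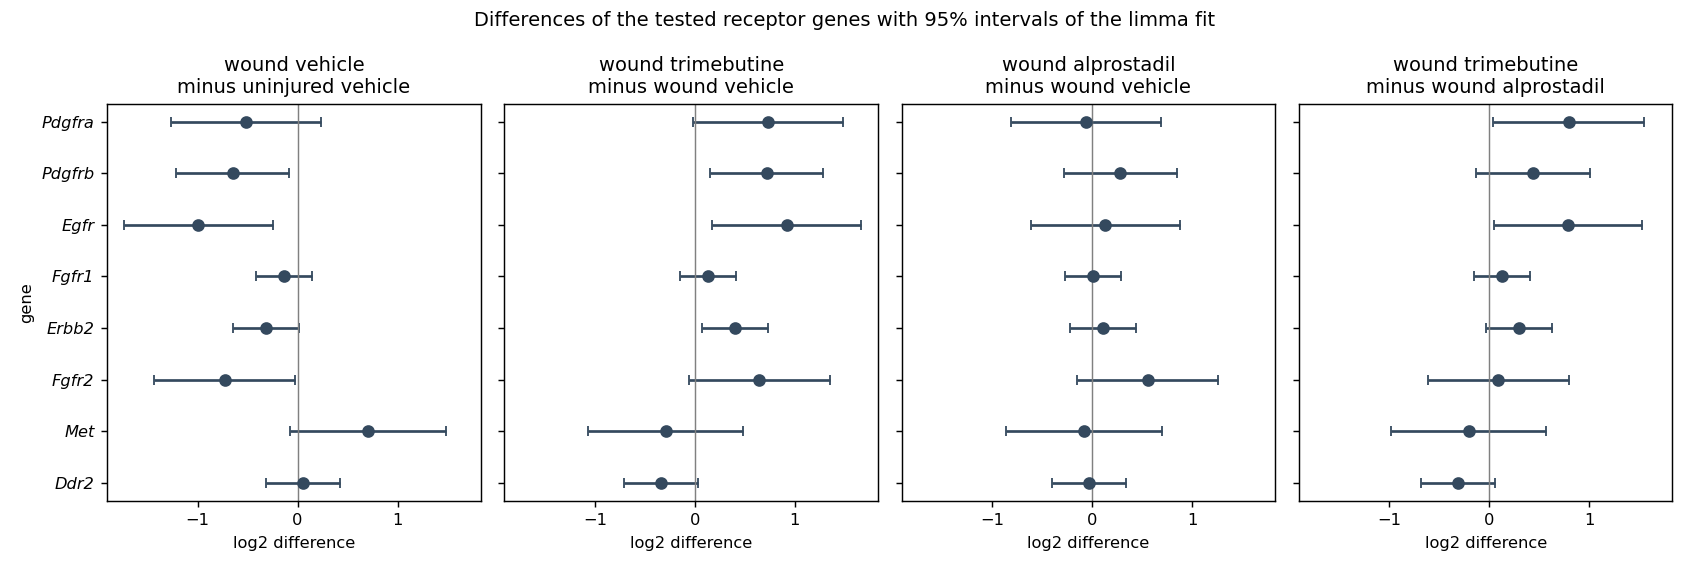
Log2 difference (x axis) of each tested receptor gene (y axis) for 4 pairs of groups, with the limma estimate as a point and its 95% interval as a line. Egfr and Pdgfrb have intervals below 0 in wound vehicle against uninjured vehicle and above 0 in wound trimebutine against wound vehicle, and no receptor passed the adjusted threshold of 0.05.

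The receptors differed in how far their arrays spread within a group. The pooled within-group SD was 0.48 for Met, 0.46 for Pdgfra and for Egfr, 0.44 for Fgfr2, 0.35 for Pdgfrb, 0.22 for Ddr2, 0.19 for Erbb2 and 0.16 for Fgfr1, against a median of 0.17 over all tested genes. The low arrays were the same for several of them. Replicates 1 and 2 of wound vehicle and of wound alprostadil were the 4 lowest arrays for Pdgfra, and this set was defined by that gene. Pdgfrb, Egfr and Fgfr1 had the same 4 lowest arrays, a pattern that 645 of the 13153 tested genes (4.90%) shared. For 769 tested genes (5.85%) and 0 of the 8 tested receptors they were the 4 highest arrays. Pdgfra lay between 11.19 and 11.51 on those 4 arrays and between 11.92 and 12.67 on the other 8. Egfr lay between 10.34 and 10.85 against 11.37 and 12.04, and Pdgfrb between 11.80 and 12.21 against 12.61 and 12.87. Fgfr1 showed no gap, with 12.15 to 12.34 on the 4 arrays and 12.34 to 12.61 on the other 8. Of the same 4 arrays, 3 were among the 4 lowest for Erbb2 and Fgfr2, 3 were among the 4 highest for Ddr2 and 2 among the 4 highest for Met.

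The same 4 arrays stood apart in other measures. They scored 19.3 to 38.9 on the first principal component of all tested genes, which carried 43.8% of the variance, and the other 8 arrays scored at most 7.45. Lum (lumican, a fibroblast proteoglycan) read 11.15 and 10.57 on wound vehicle replicates 1 and 2 and 11.07 and 10.71 on wound alprostadil replicates 1 and 2, against 12.13 to 12.53 on the other 8 arrays. Lum had the smallest p of the 9 fibroblast markers in wound vehicle against uninjured vehicle. In wound trimebutine against wound vehicle, 8 of the 9 were higher and 1, Thy1, was lower. Thy1 lay between 9.683 and 10.27 in uninjured vehicle and between 8.965 and 9.847 in wound vehicle. It lay between 8.981 and 9.249 in wound trimebutine and between 7.874 and 9.763 in wound alprostadil. The mean of the 9, Pdgfra included, lay 5.16 to 5.45 units above the array median on the 4 arrays and 5.88 to 6.15 on the other 8. Fn1 and Vim stayed between 13.81 and 13.94 and between 13.61 and 13.84 on all 12. Macrophage markers averaged 4.36 and -0.29 units from the array median on wound alprostadil replicates 1 and 2 and 0.53 and 0.99 on wound vehicle replicates 1 and 2, against -0.39 to 0.63 on the other 8 arrays. Their part in the receptor values was not tested. Fewer cells of a type and less RNA per cell cannot be told apart in bulk RNA, and the part of fibroblast markers in the receptor values was not tested.

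**Figure D3:**
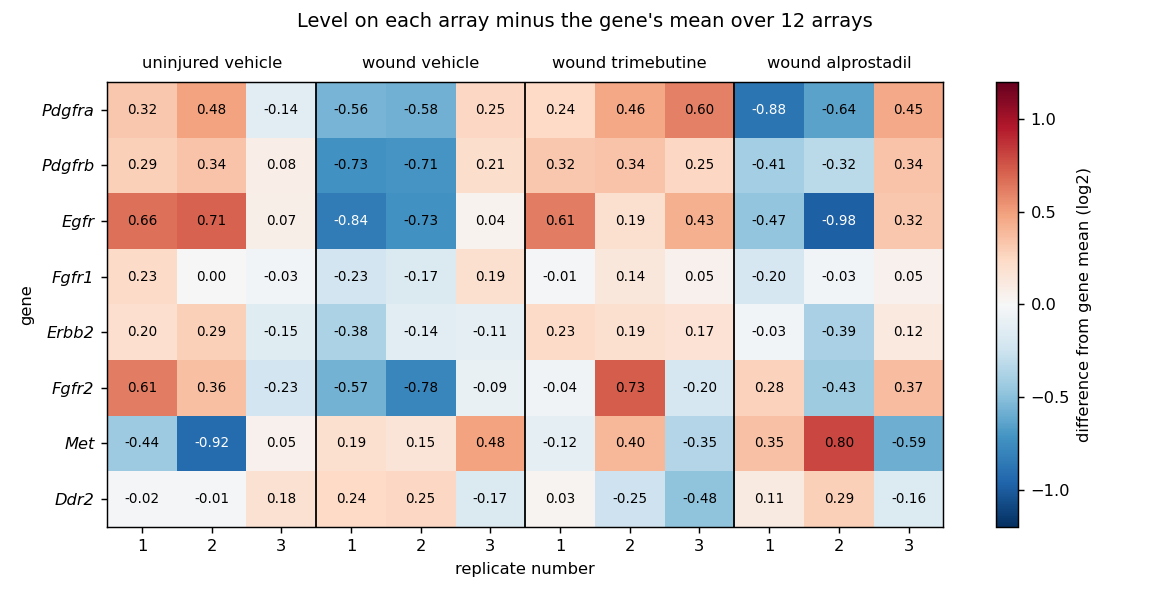
Each of the 8 tested receptor genes (rows) on each of the 12 arrays (columns, by group and replicate), coloured by its log2 level minus the gene's mean over the arrays. Replicates 1 and 2 of wound vehicle and wound alprostadil are low for Pdgfra, Pdgfrb and Egfr. For Fgfr1 they are the lowest without a gap to the other arrays, and Ddr2 is high on 3 of these 4 arrays.

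Some genes followed a receptor closely over the 12 arrays. The 3 tested genes of highest Pearson r with each receptor were taken from 12328 genes, as a description only, since the arrays fall into groups and share the 4 arrays above. Pdgfra was followed by Loxl1 (a collagen and elastin crosslinking enzyme, r = 0.984), Smarca1 (0.982) and Greb1l (0.973). Pdgfrb was followed by Rcn3 (0.982), Ssc5d (0.979) and the chemokine Cxcl12 (0.978). Egfr was followed by Nanp (0.978) and by Col4a1 and Col4a2 (0.976 each), which encode the chains of basement membrane collagen IV. Erbb2 had Nanp (0.934), Hsd11b1 (0.931) and Plekhf1 (0.931). Fgfr1 had the G protein subunit Gna11 (0.946), Cpped1 (0.941) and Acot12 (0.931), and Fgfr2 had Trim21 (0.937), Ccdc189 (0.917) and Ankfy1 (0.915). The genes nearest to Met were Chmp2a (0.939), Cdc37 (a kinase cochaperone, 0.909) and Glrb (0.902), and those nearest to Ddr2 were Scpep1 (0.964), Mfsd1 (0.956) and the cystine transporter Slc7a11 (0.956).

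The pathway around the receptors was followed through 4 lists: ligands (17 of 26 listed genes tested), other receptor tyrosine kinases (28 of 42), adaptors and co-receptors (24 of 27) and attenuators of signalling (24 of 25). The ligands include the collagen genes Col1a1, Col1a2 and Col3a1, which bind Ddr2 and are also fibroblast markers. Mean levels in uninjured vehicle, wound vehicle, wound trimebutine and wound alprostadil were 12.9, 12.44, 13.16 and 12.58 for Col1a1. For Col1a2 they were 12.91, 12.61, 12.89 and 12.65, and for Col3a1 12.6, 11.58, 12.83 and 12.05. Ligand medians without these collagens were not computed. No gene of any list passed the adjusted threshold in any comparison, in either direction. In wound vehicle against uninjured vehicle 12 of 17 ligands, 19 of 28 other receptors, 20 of 24 adaptors and 15 of 24 attenuators were lower, with median differences of -0.30, -0.14, -0.28 and -0.09 against 0.01 for all genes. In wound trimebutine against wound vehicle 10 of 17 ligands, 21 of 28 other receptors, 18 of 24 adaptors and 17 of 24 attenuators were higher, with medians of 0.28, 0.28, 0.14 and 0.09 against 0.00. In wound alprostadil against wound vehicle 12 of 17 ligands, 18 of 28 other receptors, 19 of 24 adaptors and 16 of 24 attenuators were higher, with medians of 0.14, 0.08, 0.10 and 0.10 against 0.03. The comparisons share the wound vehicle arrays.

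**Figure D4:**
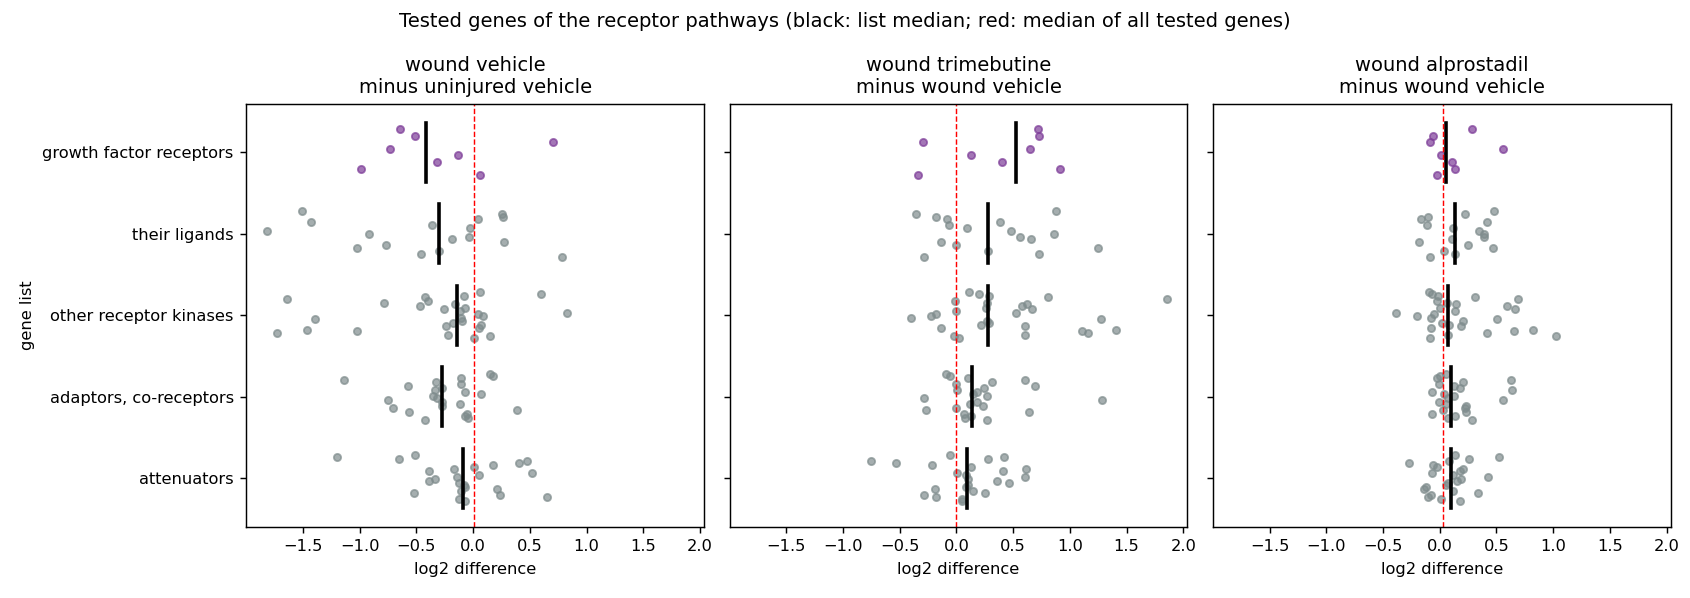
Log2 difference (x axis) of every tested gene of the 4 pathway lists and of the receptor genes, with a point per gene and a bar for the list median and a dashed line for the median of all tested genes, for 3 comparisons. Medians of ligands and adaptors are -0.30 and -0.28 in wound vehicle against uninjured vehicle and 0.28 and 0.14 in wound trimebutine against wound vehicle. The ligands include the collagen genes Col1a1, Col1a2 and Col3a1.

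Among ligands, the smallest p for wounding belonged to Pdgfd, a ligand of Pdgfrb. Pdgfd read 9.57, 9.57 and 9.22 in uninjured vehicle, 7.53, 7.85 and 8.46 in wound vehicle, 9.22, 8.95 and 8.30 in wound trimebutine, and 8.43, 7.96 and 8.89 in wound alprostadil. The uninjured arrays lay above all wound vehicle arrays, a difference of -1.51 ± 0.31 (limma unadjusted p = 0.000592, adjusted p = 0.119). Pdgfd was also the ligand of smallest p for trimebutine against wound vehicle, at 0.88 ± 0.31 (adjusted p = 0.528), with overlap. Fgf7, the keratinocyte growth factor made by dermal cells, read 11.06, 10.71 and 10.68 in uninjured vehicle and between 8.51 and 10.37 on the 9 wound arrays. Its differences from uninjured vehicle were -1.82 ± 0.44 in wound vehicle, -1.34 ± 0.44 with trimebutine and -1.47 ± 0.44 with alprostadil (limma adjusted p = 0.186, 0.452 and 0.565). Pdgfc, a ligand of Pdgfra, differed by -0.58 ± 0.23 between trimebutine and alprostadil (adjusted p = 0.752).

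Of the other receptor tyrosine kinases, the ephrin receptors Epha3 and Epha7 had the smallest p in wound vehicle against uninjured vehicle and in wound trimebutine against wound vehicle. Epha3 read 11.39, 11.55 and 10.63 in uninjured vehicle, 9.30, 9.12 and 9.97 in wound vehicle, 10.92, 10.50 and 10.44 in wound trimebutine, and 10.39, 8.79 and 10.44 in wound alprostadil. Wound vehicle lay below uninjured vehicle on every array, by -1.73 ± 0.43 (limma adjusted p = 0.19). Epha7 read 8.06, 8.38 and 9.96 in wound vehicle and 10.31, 10.22 and 10.08 in wound trimebutine, a difference of 1.40 ± 0.41 without overlap (limma adjusted p = 0.528). Tek, the angiopoietin receptor, was higher than in uninjured vehicle by 0.60 ± 0.18 in wound vehicle, 0.80 ± 0.18 in wound trimebutine and 0.54 ± 0.18 in wound alprostadil (limma adjusted p = 0.221, 0.183 and 0.636). Musk, the agrin receptor of muscle, was 0.59 ± 0.22 higher in wound alprostadil than in wound vehicle (adjusted p = 0.998).

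Among adaptors and attenuators, no gene passed either. Sdc4 (syndecan 4, a heparan sulfate co-receptor of FGF) read 11.19, 11.35 and 10.82 in uninjured vehicle and 9.96, 9.65 and 10.33 in wound vehicle, without overlap and with a difference of -1.14 ± 0.27 (limma adjusted p = 0.186). Spry2, a feedback inhibitor of the ERK pathway, read 10.08, 9.64 and 9.59 in uninjured vehicle and 9.03, 9.18 and 9.14 in wound vehicle, a difference of -0.65 ± 0.15 (limma adjusted p = 0.168). Socs5, which promotes the breakdown of Egfr, read 8.39, 8.15 and 8.66 in wound vehicle and 8.85, 9.05 and 9.13 in wound trimebutine, a difference of 0.61 ± 0.14 (limma unadjusted p = 0.0016, adjusted p = 0.528). Sh3kbp1, an adaptor in the uptake of activated receptors, lay between 10.72 and 10.74 in uninjured vehicle and between 11.02 and 11.44 on the 9 wound arrays. Its differences from uninjured vehicle were 0.52 ± 0.13 with trimebutine and 0.45 ± 0.13 with alprostadil (limma adjusted p = 0.244 and 0.538). Ptpn11, the phosphatase SHP2, differed by 0.25 ± 0.09 between trimebutine and wound vehicle (adjusted p = 0.528).

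The calls on the receptors rested on how the arrays were weighted. In the model all 12 arrays counted alike. When limma estimated a weight for each array, wound vehicle replicate 3 received 0.32 and wound alprostadil replicate 1 received 0.30, while uninjured vehicle replicate 2 and wound trimebutine replicate 2 received 5.99 and 4.69. Under these weights 6 of 8 receptors passed in wound vehicle against uninjured vehicle, where 38.0% of all genes did, and 7 of 8 in wound trimebutine against wound vehicle, where 30.7% did. Egfr was then lower by -1.41 (adjusted p = 0.00176), Pdgfrb by -0.97 (0.00163), Pdgfra by -0.92 (0.00525), Erbb2 by -0.54 (0.00404) and Fgfr2 by -0.93 (0.0173), and Met was higher by 1.01 (0.0155). In the other comparisons of the drug groups, Met passed for trimebutine against uninjured vehicle (1.01, adjusted p = 0.0163, 16.5% of all genes) and Egfr for alprostadil against uninjured vehicle (-1.27, adjusted p = 0.037, 4.27% of all genes). Egfr lay -0.40 units from uninjured vehicle with trimebutine and did not pass (weighted limma, adjusted p = 0.164). For alprostadil against wound vehicle and for trimebutine against alprostadil the weighted fit called 0 of 8 receptors and 0% of all genes. The weighted F test called 7 of 8 receptors and 40.3% of all genes. The weights were estimated from the same 12 arrays, with 3 per group, and so favour the arrays that lie near the mean of their group.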

How the data were processed

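RNA from 12 cultures was hybridised to Affymetrix Mouse Gene 2.0 ST arrays, after cDNA synthesis from 400 ng of total RNA. The deposited values are log2 expression per probe set. The authors made them with RMA in oligo, as the submitters' processing notes state. Neither versions nor a genome build nor scan times are given in the sources used here. RMA forces like distributions on the arrays, so a shift common to most genes is not visible. Array medians were 6.57 to 6.74, and no 2 arrays were duplicates (highest correlation 0.993). Groups came from the labels, which number biological replicates and speak of independent isolates.

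Of 41345 probe sets, 23521 carried 1 symbol and were used, 1814 carried several and 16010 none. The brightest probe set per symbol gave 22180 genes, and the 13153 whose level passed the array median on 3 or more of the 12 arrays were tested. All 4 groups entered 1 limma fit (limma 3.58.1, R 4.3.3; 8 residual degrees of freedom, no covariate, equal weights), with two-sided p-values adjusted by Benjamini-Hochberg over the 13153 genes and a threshold of 0.05. Scripts were tested on simulated data. All 10 receptors are named, with the 3 genes most correlated with each tested one and, as no list gene passed, list members of smallest p. The receptors and lists were chosen with earlier results of these data known. Hgf was added for its pairing with Met, and Kit and Nrg1 were chosen after their values were seen.

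Replicate numbers recur in every group. Deviations of same-numbered arrays from their group means correlated at 0.19, 0.43 and 0.62 between wound alprostadil and wound vehicle and at 0.57, 0.22 and 0.42 between wound trimebutine and wound alprostadil. The numbers were taken to pair the arrays there, from the data and not from the labels. In the other comparisons at least 1 pair lay under 0.1. Among these, wound trimebutine and wound vehicle gave 0.29, -0.17 and 0.23, so the pairing did not hold across all wound groups. Wound vehicle and uninjured vehicle gave -0.36, -0.38 and -0.64. The replicate block fitted 1 effect per number over all 4 groups, so its p-values do not test the paired groups alone. Alternatives were a replicate block, 2 other filters, the mean of probe sets, cyclic loess, median centring, a trended robust variance, array weights, only the groups compared, and leaving out each array. Promoter windows are RefSeq's on GRCm38.p6. Python 3.11.15 with matplotlib 3.10.9 drew the figures.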

Additional observations from a re-analysis of the deposited data

How the results depend on the processing

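Of 1008 recomputed receptor differences (21 alternatives for each), 43 changed direction, 34 of them when 1 array was left out. The largest main size among the 43 was 0.293 log2 units. With array weights the number of receptors called went from 0 to 6 in wound vehicle against uninjured vehicle, 7 in wound trimebutine against wound vehicle, 1 in each drug group against uninjured vehicle and 7 in the F test; it stayed at 0 under the other alternatives, and the replicate block gave 0 in every comparison. The block left Egfr at -0.99 in wound vehicle against uninjured vehicle and changed no receptor call. Counts over all genes moved more. For wound vehicle against uninjured vehicle the 6 genes became 2 with the block, 1 with median centring, 0 with only the groups compared, 4997 with array weights and 0 to 30 with 1 array left out. For wound trimebutine against uninjured vehicle the 26 genes became 10 with the block, 12 under the stricter filter, 16 with cyclic loess, 17 with median centring, 15 with only the groups compared, 2171 with array weights and 0 to 30 with 1 array left out. For wound trimebutine against wound vehicle 0 genes became 4034 with array weights and 11 without wound vehicle replicate 3. For wound alprostadil against uninjured vehicle 0 became 562 and, with 1 array left out, up to 11. In the F test 2 became 5302 with array weights, 1 with cyclic loess or median centring, 0 with the block or the stricter filter, and 0 to 6 with 1 array left out.

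Directions turned with array weights for Met in wound trimebutine against wound vehicle (0.005), for Pdgfra and Met in wound alprostadil against wound vehicle (0.077 and 0.213), and for Erbb2, Fgfr1 and Fgfr2 in wound trimebutine against uninjured vehicle (-0.059, 0.086 and 0.132). In wound alprostadil against wound vehicle they also turned with median centring for Pdgfra (0.00) and Ddr2 (0.034) and with cyclic loess for Fgfr1 (-0.001). The cause was not tested. With 1 array left out, the ranges that crossed 0 in that comparison were -0.463 to 0.211 for Pdgfra, -0.218 to 0.433 for Egfr, -0.003 to 0.25 for Erbb2, -0.072 to 0.138 for Fgfr1, -0.392 to 0.305 for Met and -0.166 to 0.094 for Ddr2. In wound trimebutine against uninjured vehicle they were -0.011 to 0.12 for Pdgfrb, -0.281 to 0.043 for Egfr, -0.043 to 0.177 for Erbb2, -0.057 to 0.076 for Fgfr1 and -0.37 to 0.098 for Fgfr2. In wound trimebutine against wound alprostadil they were -0.195 to 0.273 for Fgfr2 and -0.597 to 0.099 for Met. In wound alprostadil against uninjured vehicle they were -0.415 to 0.078 for Fgfr2 and -0.074 to 0.153 for Ddr2, and for Ddr2 in wound vehicle against uninjured vehicle -0.012 to 0.197.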

Other observations

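Among listed genes not described above, Kit and Nrg1 were picked after their values were seen. Kit, the stem cell factor receptor of melanocytes and mast cells, whose gene lies next to Pdgfra, read 7.59, 7.46 and 7.41 in uninjured vehicle, 8.06, 7.47 and 9.42 in wound vehicle, 8.90, 8.60 and 9.04 in wound trimebutine, and 8.18, 7.85 and 7.77 in wound alprostadil. All wound trimebutine arrays lay above all uninjured and all wound alprostadil arrays, with differences of 1.36 ± 0.39 and 0.92 ± 0.39 (limma adjusted p = 0.338 and 0.752). Nrg1, a ligand of Erbb3, read 10.73, 10.24 and 9.61 in uninjured vehicle and 8.84, 8.18 and 9.27 in wound vehicle, without overlap and with a difference of -1.43 ± 0.39 (limma adjusted p = 0.205). In wound trimebutine Nrg1 read 9.61, 9.50 and 8.32 and in wound alprostadil 9.37, 8.97 and 9.21.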
